A study of Mus musculus with 45 samples.

Results

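The 200 stable rows are the rows of the count tables that were abundant in every group of hepatic stellate cells (HSCs) and whose group means differed least between groups. Counts were expressed as counts relative to the library total (CPM), and the level of a row in a group, L, was the log2 of its mean CPM plus 1. Of 23999 rows, 2136 had an L of at least 6 in all 13 groups, and the 200 with the smallest difference between highest and lowest L were taken. The group means of all groups thus chose these rows, and their small differences between groups are a description and not a test. The row names did not follow the counts, so each row is called by its line in the tables and no gene is named.

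HSCs are the retinoid-storing cells of the liver that can turn into collagen-producing myofibroblasts when the liver is injured or when the cells are grown on plastic. Comparisons between libraries of such cells need a common scale, because sequencing gives shares of a library and not amounts per cell. Library totals, the trimmed mean of M-values (TMM, the scaling of edgeR) and the size factors of DESeq2 set that scale in different ways. Rows that stay at a constant share of all libraries are a place where these scales can be laid side by side. In bulk RNA a smaller number of cells of a type and less RNA per cell cannot be told apart.

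The 45 RNA-seq libraries came from HSCs of mice whose strain is labelled C57BL6/J. The study's methods name the BomTac substrain. The HSCs were isolated and FACS-sorted on retinoid autofluorescence, so cells that had lost their retinoids could be missed by the sort. The Western diet model (WD) had 4 libraries from male mice on chow (WD 0w) and 4 each from male mice that had received Western diet with fructose in the water for 12 weeks, 16 weeks and 24 weeks (WD 12w, WD 16w and WD 24w), all killed at the same age. The CCl4 model had 4 vehicle libraries (CCl4 0w), from male mice given corn oil for 8 weeks and fasted like the dosed mice. It had 3, 4 and 3 libraries from male mice dosed repeatedly by gavage with CCl4 in corn oil for 1, 4 and 8 weeks. The vehicle group thus matched only the 8-week group in length of treatment. The age of the mice of the CCl4 model is not given in the sources used here. The in vitro model (IVT) had 3 libraries each from sorted HSCs of male mice without treatment, either held in suspension for 2 hours (d0) or grown in medium with serum for 1, 4, 8 and 12 days (d1 to d12). The study's methods describe the cultures as technical triplicates, and both the methods and the labels speak of biological replicates for sequencing, so the spread between IVT libraries may be that of wells. Each model has its own table of counts and its own controls, and any difference in handling between models cannot be told apart from the model. Libraries are named below by group and replicate letter.

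Library totals ranged from 2318311 counts (CCl4 8w B) to 7576527 (CCl4 1w A), and a count of 3 was equal to between 0.396 and 1.29 CPM. The stable rows lay far above that floor. The lowest count of any stable row in any library was 112, and the median count of the stable rows per library was between 324 and 1199. Together the stable rows held 3.60% of a library's counts ± 0.134 (SD, n = 45 libraries). The lowest share was 3.19% in WD 12w A and the highest 3.88% in CCl4 4w A.

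The names listed at the lines were checked against RefSeq, which held 23655 of the identifiers. B2m, a surface protein gene of nearly all cells, was listed at a mean of 0.00845 CPM, and Des, a filament gene used to mark HSCs, at 0.101 CPM. The 101 rows with ribosomal protein names of the Rpl and Rps series, which every growing cell uses, had a median of 6.77 CPM against 5.85 CPM for all rows. The stable rows held 0 of these 101 names. The HSC label could therefore not be checked by marker genes. The same line was read as the same gene in all 3 tables, and Spearman's rho of L over all rows between groups of different models was between 0.857 (WD 16w and IVT d12) and 0.97 (WD 0w and CCl4 0w).

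Some libraries stood apart from their own group over all abundant rows. In WD the leading principal component of the deviations from the group means took 68.7% of the sum of squares over the 2136 abundant rows. WD 16w C, WD 24w D, WD 12w A, WD 24w C and WD 16w D lay on one side of it, with scores of 0.52, 0.45, 0.28, 0.16 and 0.089, while WD 16w B, WD 24w B, WD 24w A and WD 16w A lay on the other with scores between -0.37 and -0.24. WD 12w A, WD 16w C and WD 24w D were also the largest libraries of their groups. In CCl4 the leading component took 60.5%, and in each of the 4 groups the library with the smallest total had the highest score. These were CCl4 0w D (2881190 counts), CCl4 1w C (4674910), CCl4 4w A (3627173) and CCl4 8w B (2318311). In IVT the leading component took 67.7%, with IVT d0 B at 0.78 and IVT d0 C at -0.58. These were the largest (5376383 counts) and the smallest (3556607) libraries of d0. The part of depth in these components was not tested.

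The range of L across the 13 groups was between 0.32 and 0.77 among the stable rows, with a median of 0.67, which is a highest group mean 1.59-fold above the lowest. Over all 2136 abundant rows the median range was 1.35, and the largest was 5.42. The rule set no gap between chosen and unchosen rows. Rows 16835, 18600, 11220, 8686 and 6131, the last 5 chosen, had ranges of 0.77 throughout, and rows 4435, 20394, 22138, 18938 and 18318, the 5 just outside, had 0.77 to 0.78. Only 23 of the 200 stable rows had a range under 0.5, and 127 had one under 0.7.

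**Figure D1:**
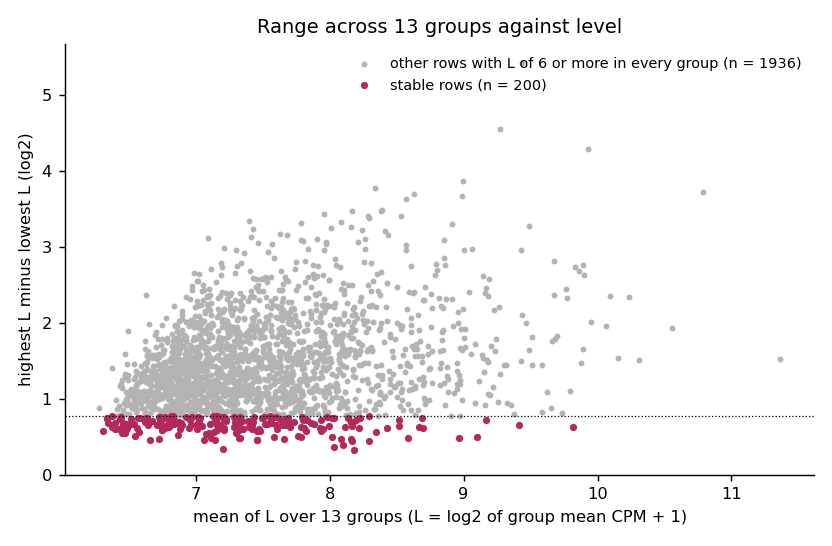
Range of L across the 13 groups (y axis, log2) against the mean of L over the groups (x axis, log2). Each point is 1 row, the 200 stable rows in red and the other 1936 abundant rows in grey, with the dotted line at the largest range of a stable row. The stable rows lie along the lower edge at mean levels between 6.31 and 9.82.

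Row 14142 had the smallest range of all. In WD its values were 285, 265, 316 and 286 CPM in the chow-fed libraries, 258, 268, 265 and 270 CPM at 12 weeks, 263, 303, 301 and 283 CPM at 16 weeks and 283, 266, 286 and 251 CPM at 24 weeks. In CCl4 they were 263, 267, 267 and 309 CPM in the vehicle libraries, 282, 297 and 280 CPM at 1 week, 390, 305, 289 and 285 CPM at 4 weeks and 261, 278 and 296 CPM at 8 weeks. In IVT they were 333, 288 and 293 CPM at d0, 333, 326 and 338 CPM at d1, 262, 284 and 277 CPM at d4, 307, 303 and 295 CPM at d8 and 297, 290 and 282 CPM at d12. The groups overlapped throughout WD and CCl4, CCl4 4w A was the highest of all 45 libraries, and IVT d1 lay above d4, d8 and d12 without overlap. The lowest group mean was WD 12w (L of 8.06) and the highest IVT d1 (8.38), a range of 0.32 or 1.25-fold.

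The next 4 rows by range were 10128, 23632, 12799 and 5841, with ranges of 0.34, 0.36, 0.39 and 0.44. They did not share a highest or lowest group. Row 10128 was highest in WD 0w and lowest in IVT d0, row 23632 highest in CCl4 8w and lowest in IVT d12, row 12799 highest in WD 16w and lowest in IVT d1, and row 5841 highest in CCl4 4w and lowest in WD 12w. In row 23632 the highest group rested on its own spread, with 244, 354 and 297 CPM in the CCl4 8w libraries.

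The rows at the other end of the list showed shapes over the groups that the range does not. Row 6131, the last one chosen, had 416, 391, 426 and 444 CPM in the vehicle libraries of CCl4 and 274, 283 and 323 CPM after 1 week. In WD it had 322, 304, 308 and 339 CPM at 0 weeks, 231, 243, 251 and 254 CPM at 16 weeks, and 219, 221, 248 and 357 CPM at 24 weeks. CCl4 1w lay wholly under its control and WD 16w wholly under WD 0w, while WD 24w D lay above every chow-fed library. Row 8686 was lowest in IVT d0 (L of 6.62), and row 11220 was highest there (7.56).

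**Figure D2:**
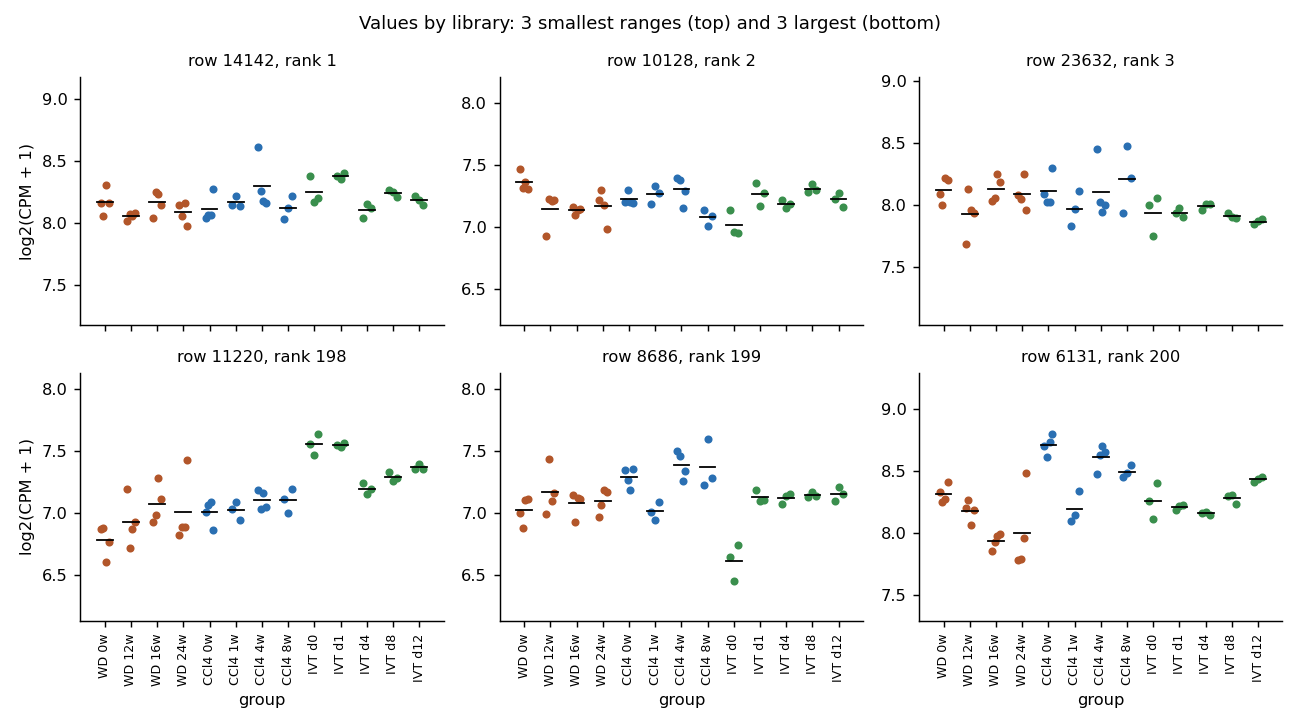
Values of 6 stable rows (y axis, log2(CPM + 1), each panel 2 log2 units high) in every library by group (x axis), the 3 with the smallest ranges above and the 3 with the largest below. Points are libraries of WD (brown), CCl4 (blue) and IVT (green), and black lines are group means. Rows 14142, 10128 and 23632 show group means close to one line, and row 8686 shows the 3 IVT d0 libraries below all the others.

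By level the stable rows spanned a mean L of 6.31 to 9.82. Rows 16016, 1936 and 11242 were the most abundant, with mean L of 9.82, 9.41 and 9.17, and rows 5047, 20753 and 20511 the least, with 6.31, 6.33 and 6.33. Row 16016 had 1028 CPM ± 117 (SD, n = 4) in WD 0w and 1013 ± 138 (n = 4) in WD 24w. In IVT it had 915 ± 141 CPM (n = 3) at d0 and 671 ± 13.1 (n = 3) at d12, its lowest group. Of the abundant rows with a mean L between 6 and 7, 12.0% were chosen, against 8.91% between 7 and 8, 7.43% between 8 and 9 and 5.71% between 9 and 10, where the 4 chosen rows are few.

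The groups in which the stable rows peaked were uneven. IVT d1 held the highest L for 41 of the 200 rows and IVT d0 the lowest for 41. CCl4 0w was the highest for 24 and IVT d12 for 22, and WD 12w was the highest for 2 and the lowest for 29. An IVT group was the highest or the lowest for 156 rows. Within a model the ranges of the stable rows had medians of 0.30 in WD, 0.37 in CCl4 and 0.46 in IVT, and the means of the 3 models differed by a median of 0.23.

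As a body the stable rows still moved with group. On library totals the median deviation of a stable row from its own mean over the groups was -0.12 in WD 12w and 0.087 in IVT d1. These were the 2 ends of the 13 groups, a span of 0.21. Over all abundant rows the corresponding medians spanned 0.38, from -0.20 in WD 16w to 0.17 in IVT d1. The groups at the ends changed with the scale. On TMM they were CCl4 8w (-0.15) and WD 16w (0.13), a span of 0.28 against 0.57 for abundant rows. On DESeq2 size factors they were CCl4 8w (-0.095) and IVT d0 (0.20), a span of 0.29 against 0.59. Between IVT d0 and d1, 135 stable rows were higher at d1 and 65 lower on totals, with a median difference of 0.19. Mean log2 factors relative to the total were -0.19 at d0 and 0.052 at d1 by TMM. By DESeq2 size factors they were -0.27 and 0.11. Both gaps are larger than that median, so its direction holds on totals and not on these 2 scales. Between WD 0w and WD 12w, 64 were higher and 136 lower at 12 weeks on totals, with a median of -0.11. The control groups of WD and CCl4 were closer on totals, with 102 rows higher and 98 lower in CCl4 0w and a median of 0.0032. Their mean log2 TMM factors were -0.061 in WD 0w and 0.029 in CCl4 0w.

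Counts of called rows are given beside the background and nothing is read from them, since the rule used these contrasts. At an FDR of at most 0.05 (edgeR quasi-likelihood test with TMM, all groups of a model in the fit), 23 of 200 stable rows (11.5%) were called in WD 24w against WD 0w, where 44.8% of all 13510 tested rows and 34.5% of the abundant rows were called. The 23 fell to 12 without WD 0w A or WD 24w C and to 14 without WD 0w D, where the abundant rows called fell from 736 to 531, 436 and 534. In CCl4 8w against CCl4 0w, 69 stable rows (34.5%) were called, against 50.0% of all tested and 51.3% of the abundant rows. In IVT d12 against d0, 139 stable rows (69.5%) were called, against 81.7% and 83.0%. For a difference among any groups of a model, 43 stable rows were called in WD (49.7% of all tested and 40.4% of abundant rows), 91 in CCl4 (64.3% and 65.8%) and 180 in IVT (95.4% and 96.4%). Without letter A, B, C or D the 43 of WD fell to 19, 14, 5 or 7, and the abundant rows called from 864 to 579, 639, 314 or 299. Without B or C the 91 of CCl4 fell to 39 or 46, and the abundant rows called from 1405 to 933 or 1039. The libraries of an IVT group may be wells of one preparation.

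The stable rows that differed most between control and latest point were not the same in the 3 models. In WD rows 21302 and 14259 had the highest differences of L (0.67 and 0.57) and rows 18989 and 356 the lowest (-0.60 and -0.60). Row 14259 had 96.3, 105, 93.2 and 99.3 CPM in WD 0w and 98.6, 106, 171 and 210.3 CPM in WD 24w, which overlapped, and its difference was 0.34 without WD 24w D. Row 21302 was at 66.1 CPM ± 2.57 in WD 0w and 106 ± 13.3 in WD 24w (SD, n = 4 each). In CCl4 rows 17474 and 20233 were highest (0.55 and 0.55) and rows 13730 and 845 lowest (-0.67 and -0.59). Row 13730 was at 376 CPM ± 25.7 (n = 4) in vehicle and 236 ± 16.9 (n = 3) at 8 weeks. In IVT rows 5899 and 14822 were highest (0.77 and 0.76) and rows 20934 and 10039 lowest (-0.75 and -0.72). Of the 200, 42 were higher at the latest point in all 3 models and 36 lower in all 3, counted on library totals.

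Spread between replicates widens the differences between group means, so the choice of rows itself favours a low spread within groups, and the comparison with the abundant rows here is a description. The median SD of log2(CPM + 1) within groups was 0.16 in WD, 0.14 in CCl4 and 0.073 in IVT for the stable rows, and 0.23, 0.20 and 0.086 for all abundant rows. The SD that counting alone would give was 0.056, 0.057 and 0.047 for the stable rows. The spread within groups was above counting error in 199 of the stable rows in WD, 197 in CCl4 and 177 in IVT. The IVT count pools d0 with the cultures. With all libraries thinned to 2318311 counts, the spread was above counting error in 155 stable rows in d0. In d1, d4, d8 and d12 it was above in 90, 65, 77 and 80. The SD of so few libraries falls below the true SD more often than above it. Counting alone would thus leave most rows under counting error, and these counts do not show a spread below it. Of the sum of squares of a stable row over the 45 libraries, a median of 27.6% lay within groups, 46.5% between groups of a model and 22.1% between models. For all abundant rows these were 15.8%, 42.5% and 37.6%.

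Groups differed widely in this spread. WD 12w had the largest median SD of the stable rows (0.17), followed by CCl4 8w (0.16) and WD 16w (0.15). CCl4 8w has 3 libraries and the WD groups have 4. Fewer libraries give a lower median SD, so the order of WD 12w and CCl4 8w is not settled. CCl4 1w (0.076) was the tightest group of the mice, followed by the chow-fed (0.093) and vehicle (0.10) groups. IVT d0 had 0.13, but d1, d4, d8 and d12 had 0.042, 0.036, 0.035 and 0.038. The median SD of 3 libraries is lower than the true SD, and counting alone would give medians of 0.037, 0.037, 0.036 and 0.035 in these groups. In the stable rows the cultured libraries thus lay near counting error. With all libraries thinned to 2318311 counts, d1 and d12 had 0.071 and 0.067, above the 0.063 that counting would give, and d4 and d8 had 0.056 and 0.063. The squared difference between paired libraries over its counting variance was on average 1.41 to 1.83 for stable rows within d1 pairs, 0.780 to 1.25 within d4, 0.802 to 1.33 within d8 and 1.08 to 1.56 within d12, where 1 is counting error. Over the abundant rows this ratio was 2.35 to 3.33 within d1 and 1.21 to 1.59 within d4. It was 1.00 to 1.62 within d8 and 1.45 to 2.41 within d12. Over all rows with at least 20 counts in the pair it was above 1 in each pair, from 1.07 in d8 to 2.04 in d1, and libraries were kept as separate replicates. The tables were made with at most 3 reads counted per position, and the part of that limit in this spread was not tested.

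**Figure D3:**
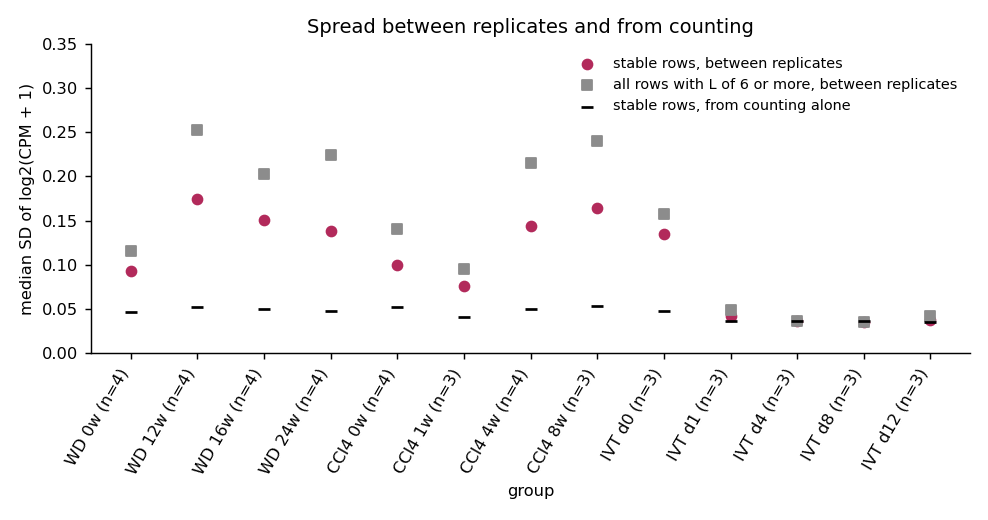
Median SD of log2(CPM + 1) between replicates (y axis) in each group (x axis, n libraries given) for the 200 stable rows (red) and all 2136 abundant rows (grey squares), with the median SD that counting alone would give at that n for the stable rows (black dashes). The red points lie well above the dashes in WD, CCl4 and IVT d0 and close to them in IVT d1, d4, d8 and d12.

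Single libraries of a stable row lay farther apart than its group means. Over the 45 single libraries the range of a stable row was between 0.53 and 2.09, with a median of 1.00. It was above 1, which is 2-fold, in 100 of the 200 rows and above 1.5 in 10. Of all abundant rows 94.6% had a range above 1. WD 12w A was the lowest of all libraries for 44 stable rows and CCl4 8w B for 26, and CCl4 4w A was the highest for 23. In WD 12w A, 47 stable rows lay over 0.3 from their group mean, in CCl4 4w A 37, in CCl4 8w B 35 and in WD 24w D 32. In each of the 12 culture libraries from d1 to d12 the count was 0.

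Row 845 had the largest within-group SD of the stable rows (0.43). Its values were 454, 435, 478 and 401 CPM in WD 0w and 230, 359, 406 and 368 CPM at 12 weeks. At 16 weeks they were 429, 430, 120 and 232 CPM, and at 24 weeks 438, 471, 219 and 112 CPM. Replicates A and B of both late groups were at the chow-fed level while C and D were far below it, as was WD 12w A in its group. Row 13460, with an SD of 0.40, followed the same libraries, with 130, 116, 36.4 and 67.9 CPM at 16 weeks and 134, 133, 65.4 and 37.2 CPM at 24 weeks. In IVT the pooled SD of these rows was 0.031 and 0.039.

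Pearson's r between the deviations of rows 845 and 13460 from their group means was 0.99 over the 16 WD libraries, which share their totals and their group means. With row 845, 6 stable rows had an r above 0.8, row 13460 among them, and 27 had one under -0.8. The most opposite was row 22009 (r of -0.96), with 95.0, 91.5, 137 and 112 CPM at 16 weeks and 91.2, 99.1, 119 and 158 CPM at 24 weeks. Row 22009 was thus highest in the libraries in which row 845 was lowest. The third row by SD was 11074 (0.26), with 86.0, 109, 189 and 133 CPM at 16 weeks. Without the 5 WD libraries with scores above 0.05 on the leading component, 174 of the 200 rows were chosen again. The median SD of the stable rows in WD was then 0.11. Libraries on the other side, such as WD 16w B (-0.37) and WD 16w A (-0.24), were kept. Leaving out a single side narrows the spread within groups, so a lower SD was partly set by this choice.

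At the other end, rows 7397, 12799 and 347 had the smallest SD within groups, 0.075, 0.075 and 0.076. Row 347 had 135, 131, 125 and 127 CPM in WD 0w and 92.9, 94.5, 86.1 and 93.0 CPM in CCl4 0w, with no overlap between the 2 control groups. It had 81.3, 67.0 and 79.3 CPM in IVT d0 and 121, 112 and 121 CPM in IVT d12. A row with low SD within groups could thus have a range of 0.77 between them, while row 12799 had both a low SD and a range of 0.39.

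Rows were also chosen without each replicate letter in turn and then read in the libraries left out, which had no part in their choice. Without letter A, 171 of the 200 rows were chosen again, and without B, C and D 169, 169 and 184. In the 13 left-out libraries, 1 per group, the rows chosen had a median range of 0.82 for A, 0.84 for B and 0.78 for C. All abundant rows of those choices had 1.51, 1.55 and 1.47. The largest range of group means among the kept libraries was 0.81, 0.76 and 0.80 without A, B and C, and 98, 74 and 109 of the 200 rows stayed within it in the left-out libraries, against 6.68%, 4.97% and 8.22% of abundant rows. The median deviation of the chosen rows in a left-out library lay between -0.20 and 0.11 over letters A, B and C.

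The stable rows gave a factor for each library, the median of their deviations from their mean over all libraries, which is relative to the library total and 0 on the log2 scale for an average library. It was between -0.17 (WD 12w A) and 0.11 (IVT d1 A), a span of 0.28. The rows were chosen for small differences between groups on totals, so the choice itself keeps this factor near 0. Its span and its gaps from the other factors are a description and not a test. TMM factors over the same 45 libraries spanned 0.41, from -0.22 (IVT d0 C) to 0.19 (CCl4 4w C), and DESeq2 size factors over the total spanned 0.49. TMM and stable rows differed by a median of 0.049 in size and had opposite signs in 11 of 45 libraries. The largest differences, TMM minus stable rows, were -0.18 in WD 16w C and 0.19 in CCl4 4w C. In CCl4 4w the mean was 0.18 ± 0.0091 by TMM and 0.030 ± 0.038 by the stable rows (SD, n = 4).

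**Figure D4:**
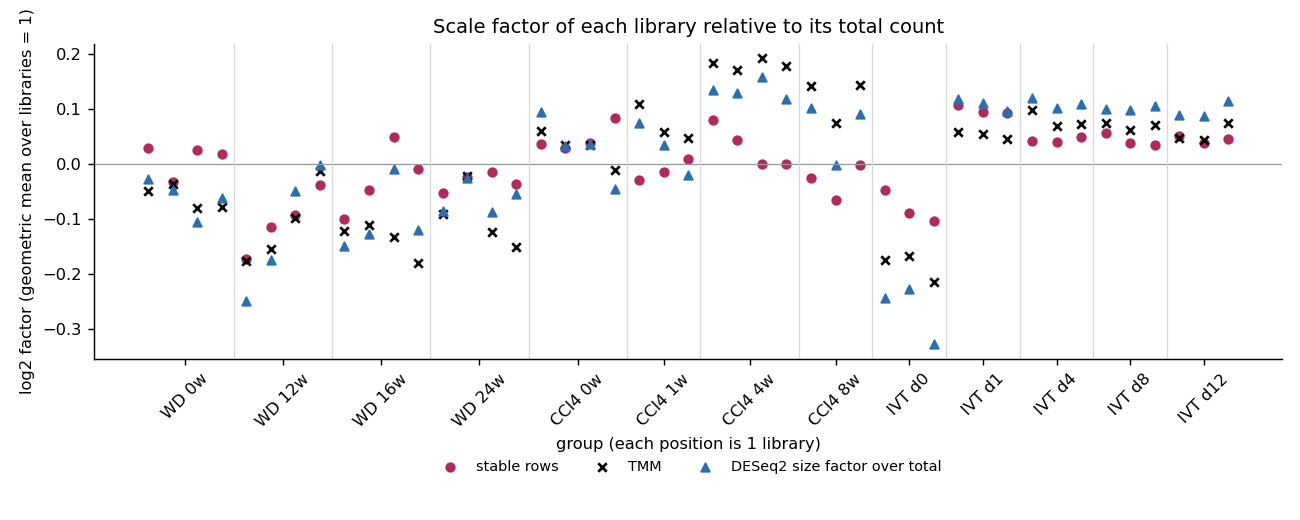
Log2 scale factor of each library relative to its total count (y axis), by group (x axis, each position 1 library), from the stable rows (red circles), TMM (black crosses) and DESeq2 size factors divided by the total (blue triangles). In CCl4 4w and CCl4 8w the TMM factors lie above those of the stable rows, and in IVT d0 all 3 kinds of factor lie below 0, those of the stable rows the least.

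Whether TMM factors differed between control and latest point was asked with an exact two-sided permutation test of their mean log2, adjusted over the 3 models. In IVT the values were -0.18, -0.17 and -0.22 at d0 and 0.047, 0.044 and 0.074 at d12, which did not overlap. Their difference was 0.24 (p = 0.10, adjusted p = 0.15, exact permutation test, n = 3 each), and 0.10 is the smallest p that 3 against 3 can give. In CCl4 the control mean was 0.029 ± 0.029 (SD, n = 4) and the 8-week mean 0.12 ± 0.039 (n = 3). The difference of 0.091 had an exact permutation p of 0.029, the smallest this design allows, and an adjusted p of 0.086. In WD the difference was -0.036 and the groups overlapped (exact permutation p = 0.31, adjusted p = 0.31, n = 4 each). From the stable rows the same differences were 0.13, -0.078 and -0.042, given without a test.

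The choice of scale set the direction of the stable rows in IVT. A change of scale moves all rows of a library alike, and these rows were chosen for small differences on totals. The turns of direction below thus restate the differences between factors and are not a result about the rows. In IVT d12 against d0, 125 of 200 stable rows were higher on library totals and 75 lower, with a median difference of 0.12. On TMM 72 were higher and 128 lower, with a median of -0.12, and on DESeq2 size factors 52 were higher and 148 lower (-0.24). On the factors of the stable rows themselves 97 were higher and 103 lower, which that scale sets near balance by construction. The median of all abundant rows moved alike, from 0.058 on totals to -0.18 on TMM and -0.30 on size factors. In CCl4 8w against 0w, 79 stable rows were higher and 121 lower on totals, 59 and 141 on TMM, 70 and 130 on size factors and 54 and 146 on upper-quartile factors. In WD 24w against 0w, 88 were higher and 112 lower on totals, 97 and 103 on TMM, 88 and 112 on size factors and 52 and 148 on upper-quartile factors. More rows were thus lower than higher in both models on these 4 scales. Among called rows in IVT, 93 stable rows were higher and 45 lower on totals, and 33 higher and 106 lower on TMM. The abundant rows called went from 933 higher and 832 lower to 600 and 1172, and all called rows from 7211 and 4098 to 5874 and 5277. In CCl4 8w against 0w, 12 were called higher and 36 lower on totals, 5 and 64 on TMM, and 27 and 21 on the stable-row factors. The abundant rows called were 317 and 695, 187 and 908, and 413 and 570 on the same scales. In WD 24w against 0w the calls were 6 higher and 17 lower on totals and on TMM alike, and 16 and 11 on the stable-row factors, beside 221 and 529, 211 and 525, and 276 and 447 abundant rows.

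TMM compares each library with one reference library, and the one it took over all 45 was WD 12w A, in which the stable rows held their lowest share. With each of the 45 libraries as reference in turn, an alternative added after the data were seen, the IVT difference lay between 0.24 and 0.41 and the CCl4 difference between 0.034 and 0.19, above 0 with all 45. The WD difference lay between -0.036 and 0.16, above 0 with 38 references and below with 7. The values with WD 12w A were the lowest of the 45 in WD and in IVT.

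The scale also decided which rows were stable. Choosing on TMM kept 127 of the 200 rows (63.5% of each list), on DESeq2 size factors 118 (59.0%) and on upper-quartile factors 141 (70.5%). All 4 scales shared 101 rows, and at least 1 of them named 313. Of the 5 rows with the smallest ranges, 4 were chosen on all 4 scales. On TMM the median range of the 200 stable rows was 0.70 against 0.67 on totals, and 69 of them were past the largest range they had on totals. The choice on totals set that limit, and on the factors of the stable rows themselves 20 were past it.

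The relation between the CPM of a stable row and the depth of its library differed with the level of the row. The slope of log2(CPM + 1) on the log2 library total was taken within groups over the 45 libraries, where 0 means that counts grew in proportion to the total and -1 that they did not grow at all. The median slope of the 200 stable rows was 0.0044. It was 0.087 for the 71 rows with a mean L between 6 and 7, 0.0075 for the 97 rows between 7 and 8, and -0.21 for the rows at 8 or more. With library sizes scaled by TMM the median slope was -0.033 over the 200 rows. It was then 0.049 between 6 and 7, -0.030 between 7 and 8 and -0.25 at 8 or more. Of the 28 stable rows between 8 and 9, 21 had a slope under 0, and all 4 rows between 9 and 10 did, against 26 of 71 in the lowest bin. Over all abundant rows the medians went from 0.16 through 0.089 and -0.11 to -0.38 in the same 4 bins.

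The order of the bins was found in each model, but the slopes themselves differed. Stable rows between 6 and 7 had median slopes of 0.10 in WD, 0.023 in CCl4 and 0.11 in IVT, and those between 8 and 9 had -0.13, -0.14 and -0.34. In CCl4, all abundant rows between 8 and 9 had a median of 0.085. With each library left out in turn, the median for stable rows at 8 or more stayed between -0.23 and -0.19, and that for rows between 6 and 7 between 0.066 and 0.094. These slopes are a description over rows that share their libraries. In IVT the largest total was 1.51 times the smallest within d0, but only 1.07 to 1.14 times within d1 to d12. The IVT slopes thus rest mainly on the libraries of d0. Libraries that stood apart in WD, CCl4 and IVT were also among the largest or smallest of their groups. Their part in the slopes, like that of the limit of 3 reads per position, was not tested.

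**Figure D5:**
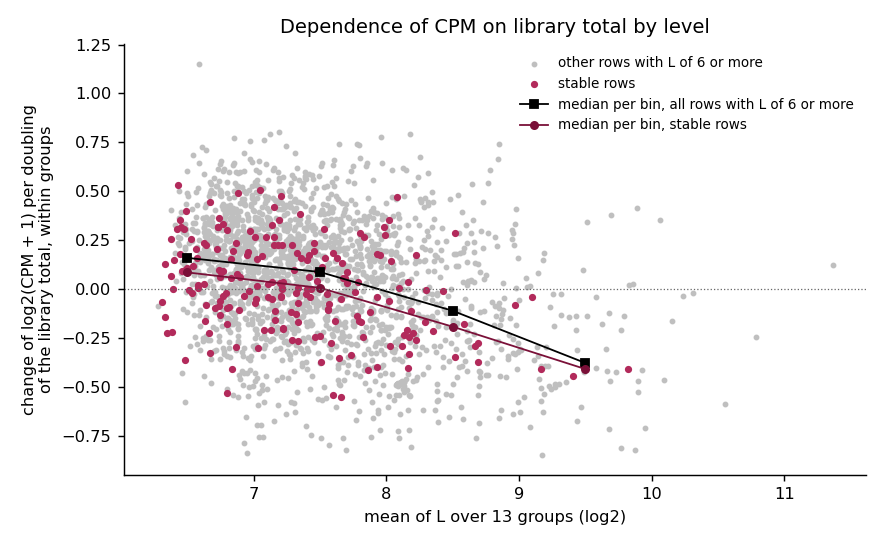
Change of log2(CPM + 1) for each doubling of the library total within groups (y axis) against the mean of L over the 13 groups (x axis, log2). Points are rows, stable rows in red and other abundant rows in grey, and the lines join the medians of 1-unit bins. Both lines fall from above 0 at levels of 6 to 7 to below 0 at levels of 8 and more, and the last bin holds only 4 stable rows.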

How the data were processed

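The values are raw exon counts that the authors deposited as a separate table for each model, with no scaling. The submitters' processing notes name STAR, HOMER and mm10, and per the file headers HOMER ignored strand and capped each position at 3 reads. Versions are not given in the sources used here. All value columns were used. The rows, gene lists and tests were chosen with earlier results of these data known. Rows named singly were the 5 smallest and 5 largest ranges, the 5 just outside, the 3 highest and lowest by level and by within-group SD, and the 2 highest and lowest by difference of L in each model. Row 22009 was named after its values were seen.

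L was computed as log2(mean CPM + 1) from column totals with Python 3.11.15. Counts were tested with edgeR 4.0.16 in R 4.3.3 (TMM, filterByExpr, quasi-likelihood test, Benjamini-Hochberg adjustment). DESeq2 1.42.0, the exact test of edgeR, other scalings, filters, pseudocounts and floors, thinning and left-out libraries were alternatives. Factors were compared by exact permutation over libraries, two-sided by absolute difference. The stable-row factor used medians over the 200 rows. Selection and count tests were tested on simulated data, and no outcome of that is given or used here. A count of 3 was the floor. It covers counting error only, since reads may be copies of one fragment. P-values of the fits measure the spread between libraries, which may be technical in IVT.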

Additional observations from a re-analysis of the deposited data

Results flagged for a closer look

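Values per group of 4 libraries were checked for a library whose gap to its nearest neighbour was most of the group's range, which chance gives in about 1 of 20 groups. Of 210 group values checked, 21 had such a library. Among the median log2 deviations of the stable rows, WD 0w B stood apart at -0.037. Among singly named rows on the log2(CPM + 1) scale, CCl4 0w D stood apart in row 14142 (8.27), row 5841 (8.70), row 5047 (6.52) and row 845 (8.60), and CCl4 4w A in row 23632 (8.45), row 1936 (9.63), row 14259 (6.26) and row 10039 (6.60). WD 12w B stood apart in row 1936 (9.74), row 11242 (9.60) and row 7397 (7.07), and WD 12w A in row 10128 (6.93). The other such values were CCl4 0w B in row 10128 (7.29), WD 0w A in row 12799 (8.12), WD 24w D in row 11220 (7.43), WD 16w B in row 8686 (6.93), WD 0w C in row 11074 (6.41), WD 24w B in row 7397 (7.58), CCl4 0w C in row 14259 (6.88) and WD 0w B in row 10039 (6.57). CCl4 0w D and CCl4 4w A are the smallest libraries of their groups, and the part of depth in these values was not tested.

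In 2 models every library of the latest point lay on opposite sides of the controls for the following values, a difference between models that was not tested. These values are relative to library totals, and TMM factors differed from control in the same direction in CCl4 (0.091) and IVT (0.24). The log2 factor of the stable rows differed from control by -0.078 in CCl4 8w and by 0.13 in IVT d12. Mean log2(CPM + 1) of row 10128 differed by -0.19 in WD 24w, -0.14 in CCl4 8w and 0.21 in IVT d12. The differences in CCl4 8w and IVT d12 were -0.21 and 0.55 for row 16835, -0.27 and 0.49 for row 18600, -0.22 and 0.18 for row 6131, -0.60 and 0.44 for row 845 and -0.34 and 0.47 for row 13460. For row 18989 they were -0.60 in WD 24w and 0.26 in IVT d12. On TMM the IVT differences were -0.033 for row 10128, -0.064 for row 6131 and 0.020 for row 18989, with overlapping groups, so these 3 rows no longer met the condition. Rows 16835, 18600, 845 and 13460 still met it on TMM, with -0.30, -0.36, -0.69 and -0.43 in CCl4 and 0.31, 0.25, 0.19 and 0.23 in IVT.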

How the results depend on the processing

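Of the 200 stable rows, 127 were chosen again on TMM, 118 on DESeq2 size factors, 94 with a floor of 7 and 0 with no floor, where 200 rows at 0 in all libraries came first. Leaving out a replicate letter or CCl4 8w B kept 169 to 185. Calls of stable rows in the WD, CCl4 and IVT contrasts fell from 23, 69 and 139 to 3, 11 and 28 when a change of at least 1.5-fold was asked for (abundant rows from 736, 1095 and 1772 to 426, 754 and 964). In WD 24w against 0w they were 13 with no filter and 46 with the DESeq2 Wald test (abundant rows 607 and 954), and for any group of WD 18 with no filter and 68 with the DESeq2 likelihood ratio test against 43 (abundant rows 717 and 1134 against 864). Leaving out 1 library gave 12 to 31 calls in WD (12 without WD 0w A or WD 24w C, 14 without WD 0w D), 55 to 67 in CCl4 and 126 to 153 in IVT (abundant rows 436 to 851, 957 to 1166 and 1691 to 1871). Leaving out 1 letter gave 5 to 19 for any group of WD, 39 to 83 for CCl4 (39 without B, 46 without C) and 140 to 179 for IVT (abundant rows 299 to 639, 933 to 1426 and 1884 to 2073).

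The TMM difference in WD (-0.036) was 0.12 with upper-quartile factors, 0.16 with no filter, 0.012 with TMM over WD alone and 0.16 with the reference giving its highest value. Without 1 library it was between -0.061 and 0.067, above 0 without WD 0w A (0.067), C (0.031) or D (0.054). The adjusted p was 0.043 (exact permutation test) with upper-quartile factors, with no filter and without WD 24w B, in opposite directions. With DESeq2 size factors it was -0.0026. In CCl4 (0.091) it was 0.034 with DESeq2 size factors (adjusted p = 0.69, exact permutation test, groups overlapping), 0.10 with upper-quartile factors and 0.17 with no filter (adjusted p = 0.043 each, exact permutation test), -0.078 from the stable rows, and 0.034 to 0.19 over references. Without 1 library it was 0.082 to 0.15, the highest without CCl4 0w B. In IVT (0.24) it was 0.13 from the stable rows and up to 0.41 over references, and without 1 library 0.22 to 0.39, the values of 0.39, 0.39 and 0.36 being those without IVT d0 A, B or C. In each model TMM chose its reference library anew when 1 library was left out. These values can thus hold a change of reference as well as the loss of a library, and the part of each was not tested. The within-group SD of stable rows in WD was 0.11 without the 5 libraries with component scores above 0.05. This alternative, like the choice of reference, was added after the data were seen. That SD was 0.15 to 0.17 under the other alternatives. Of the named differences of L, only that of row 14259 in WD moved by over 1.5 times when 1 library was left out, from 0.57 to 0.34 without WD 24w D, also an alternative added after the data were seen. The causes were not tested.

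Replicate letters are shared between groups, and no source says that a letter marks a shared animal or day. Pearson's r between deviations of libraries of the same letter had a median of 0.018 in WD (-0.53 to 0.85), 0.047 in CCl4 and -0.0033 in IVT, and was above 0.1 in 9 of 24, 9 of 19 and 9 of 30 pairs. Between different letters it reached 0.85 in WD too. In WD 16w and WD 24w each letter lay on the same side of the leading component. With the replicate letter as a block, 22, 56 and 134 stable rows were called in the 3 contrasts and 36, 70 and 173 for any group of WD, CCl4 and IVT (abundant rows 797, 992, 1747, 866, 1271 and 2047). Designs of 3 libraries a group cannot reach a permutation p under 0.10.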
